A study of Mus musculus with 4 samples.

Results

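The 45 genes described here are mouse immediate-early and rapid response genes, chosen by symbol from the 56832 genes listed in each count file. They comprise the FOS family, the JUN family with Atf3, and the EGR, NR4A, IER, DUSP, ZFP36, BTG, KLF, small MAF, GADD45 and RGS families, together with Myc, Csrnp1, Srf, Rhob, Arc and Sgk1, and were sorted into 14 subfamilies by name and role. Their RNA was measured by RNA-seq in 4 libraries of microglia, the brain's own macrophages, taken from primary glial culture of C57BL/6 mice. All 4 libraries, replicates 1 to 4, carry the same labels of strain, cell type and female sex, with no treatment, genotype change, age or time given, so they form 1 group. The cells were released from the culture with trypsin, stained and sorted straight into TRIzol LS. No source used here gives the gates of that sort or the number of cultures or animals behind the replicates, so the spread between libraries may be technical. The series was built to set such microglia beside blood progenitors grown with glia, and those libraries were not analysed here. The question asked of the 45 genes was therefore which of them varied together between libraries of the same kind and which stayed constant.

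Immediate-early genes are switched on within minutes of a stimulus, by transcription factors that are already present in the cell and need no new protein. The mitogen-activated kinase cascades, SRF with its cofactors, CREB and NF-kB are the usual routes, and many of the transcripts are short-lived because their 3′ untranslated regions carry AU-rich elements that bind decay proteins. The genes encode the next layer of transcription factors (FOS, JUN, EGR, NR4A and KLF proteins) and, in the same burst, proteins that end the response, such as the DUSP phosphatases and the ZFP36 decay proteins. In microglia and other brain cells they are known to respond to enzymatic dissociation as well as to physiological signals.

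The libraries held 23212183 to 28469813 gene counts. The 45 genes took 0.609% of these counts in replicate 1 and 0.449%, 0.507% and 0.472% in replicates 2, 3 and 4. Pearson's r of log2 CPM (counts divided by the TMM-scaled size of each library) between pairs of libraries was 0.987 to 0.993 across the genes tested, which are not independent replicates. Mitochondrial transcripts took 0.9% to 1.24% of the counts, and 17836 genes were detected in replicate 1 against 18493 to 19107 in the other libraries. Markers of microglia were abundant, with 13 of 14 past the abundance filter and a summed level of 18570 to 19730 CPM. Transcripts of the X-inactivation gene Xist (248.9 to 340.6 CPM) and of the Y-linked helicase gene Ddx3y (29.59 to 42.06 CPM) were both present in every library, so the label of female sex does not describe all of the RNA.

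Levels of different genes were compared as TPM, which divides counts by gene length. The rapid response genes covered a wide range, and 16 of the 45 averaged 100 TPM or more. The highest were Rhob, which encodes a small GTPase of the endosome and cytoskeleton, at 869.9 ± 69.0 TPM (SD; every mean below is also over n = 4 libraries), and Zfp36l2, which encodes an mRNA decay protein, at 691.6 ± 66.4. Junb (483.0 ± 86.6), the ERK phosphatase gene Dusp6 (464.2 ± 38.1), Jun (359.0 ± 70.7) and Jund (347.9 ± 24.7) came next. Fos averaged 112.4 ± 56.4 TPM and Egr1 73.8 ± 69.9. At the bottom, 4 genes averaged less than 1 TPM. Arc, a regulator of synaptic receptors known from neurons, was at 0.851 ± 0.489 TPM and Nr4a2 at 0.622 ± 0.215 TPM. Fosl1 had 3 counts in replicate 2 and 0 in the other libraries, and Egr4, known from neurons, had 0 counts in every library. A count of 0 allows up to 3 counts, or 0.1054 to 0.1281 CPM depending on the library, and this limit covers counting error only. In the order of mean TPM, the ranges of neighbouring genes overlapped in 39 of 44 pairs, so most neighbours did not differ beyond their spread.

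**Figure D1:**
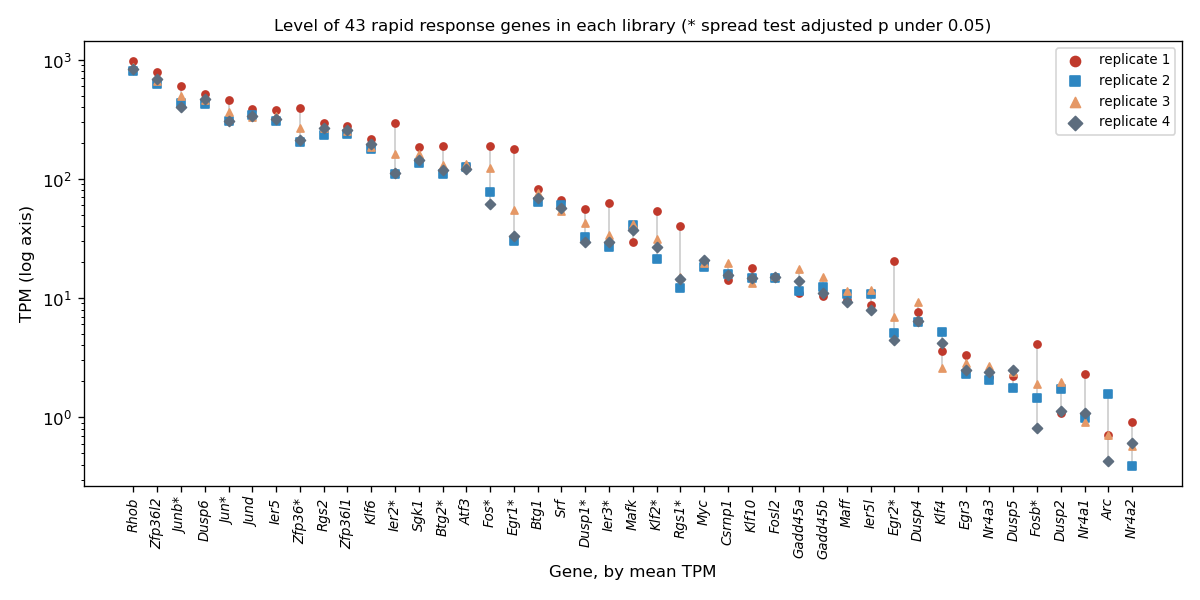
TPM (log axis) of 43 of the rapid response genes in each of the 4 libraries, ordered by mean TPM from left to right, with 1 symbol per library and a grey line from the lowest to the highest. Genes past the spread test are marked with an asterisk, and Fosl1 and Egr4 are not drawn because most or all of their counts were 0. The lines are long for Egr1, Egr2, Fosb, Fos and Rgs1, where replicate 1 lies on top, and short for Rhob, Dusp6, Atf3 and Fosl2.

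Some rapid response genes varied together, and they were highest in the same library. Each gene was tested for a spread between the 4 libraries above that of genes of like abundance (edgeR deviance test with the trended dispersion, Benjamini-Hochberg adjusted p under 0.05 over all genes). Of the 42 rapid response genes past the abundance filter, 13 passed, or 31.0%, against 143 of all 12879 genes tested (1.11%). The list of genes was chosen with earlier results of these data known, so these shares are a description. The 13 were Fos, Fosb, Jun, Junb, Egr1, Egr2, Ier2, Ier3, Dusp1, Zfp36, Btg2, Klf2 and Rgs1. All 13 were highest in replicate 1, where 0.544% of all tested genes both passed and were highest, and they made up 18.6% of those 70 genes. All 13 were also next highest in replicate 3, while the lowest library was replicate 2 for 8 of them and replicate 4 for 5. Without a test, 8.18% of all genes showed that order of replicate 1 and then replicate 3. At an unadjusted p under 0.05 there were 15 rapid response genes, beside 6.79% of all genes. The genes that passed had a median SD of 0.56 on the log2 scale, the 29 others tested 0.15, and all genes 0.13. These medians are not matched for abundance. Genes at 100 CPM or more, among them 14 of the rapid response genes, had a median SD of 0.07. Of the 29 others, 16 were highest in replicate 1 and 10 in replicate 3, and 29.7% and 24% of all tested genes were highest in these libraries. The result rests on replicate 1. Without it, 3 of the 13 genes passed, Egr1 (adjusted p = 2.1e-05), Fos (2.7e-07) and Ier2 (0.046), beside 47 of all genes (0.359%), and without replicate 3 the 13 rapid response genes passed beside 52 of all genes (0.396%). In the same libraries the summed astrocyte markers were at 339.4 CPM in replicate 1 and at 451.2 to 550.8 CPM in the others, and their part in the result was not tested.

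**Figure D2:**
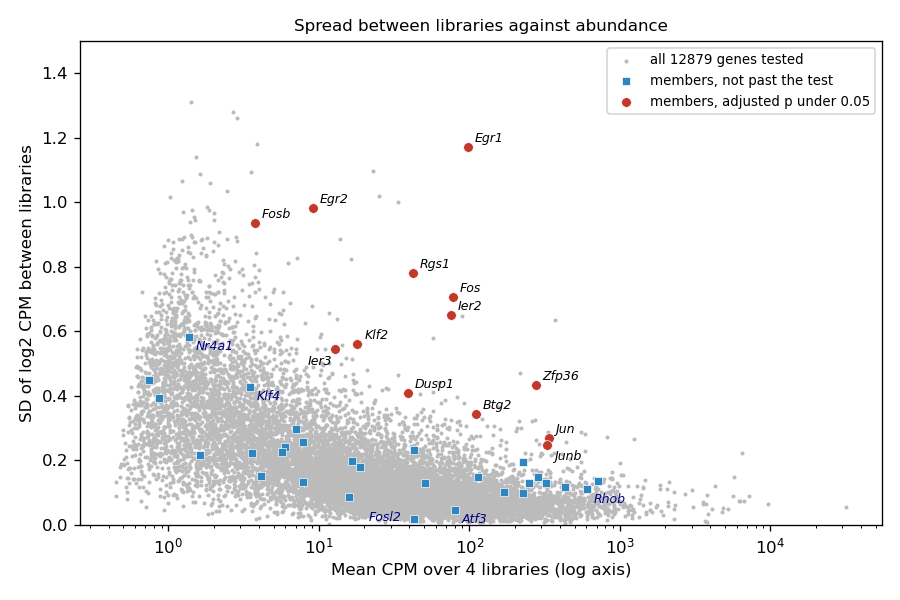
SD of log2 CPM between the 4 libraries (vertical axis) against mean CPM (horizontal log axis) for all 12879 genes tested (grey), the 29 rapid response genes not past the spread test (blue squares) and the 13 past it (red circles). The 13 lie above the bulk of genes at their abundance, from an SD of 0.25 for Junb to 1.17 for Egr1, and Fosl2 and Atf3 lie low, with 0.02 and 0.05.

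Promoters of the genes were read from RefSeq windows of GRCm38.p6, from 250 bases before to 50 bases after each annotated start, to show which of the genes that varied together carry a binding sequence of the factors named above. A window was matched by symbol for 35 of the 45 genes, 10 of them among the 13. No window was used for Fosl1, Egr1, Egr3, Ier2, Dusp4, Zfp36l2, Klf10, Myc, Rgs1 and Arc. Both strands were searched for 5 motifs. Genes without a window, and bases outside the windows, were not searched. The CArG box, bound by SRF, was present in Egr2 and Zfp36 among the 10 genes with a window that passed. It was also present in Dusp5 and Srf among the 25 others, and in 1.81% of all 27025 genes with a window. The cAMP response element TGACGTCA, bound by CREB, was present in Dusp1 and Btg2 among the 10, in Maff among the 25 others, and in 2.03% of all genes. Genes with several annotated starts had several windows and so more chances of a match. The stretches below run 5′ to 3′ on the strand of the gene, and capitals mark the motif. The Egr2 stretches lie before different annotated starts, at chr10:67537386-67537518 and chr10:67537689-67537821 on the plus strand. Each stretch runs from 180 to 48 bases before its start, except that of Zfp36, which runs from 68 to 39 bases before it. The others are Zfp36 at chr7:28379267-28379296 (minus strand), Dusp5 at chr19:53528965-53529097 (plus strand), Srf at chr17:46556210-46556342 (minus strand), Dusp1 at chr17:26508520-26508652 (minus strand) and Btg2 at chr1:134079203-134079335 (minus strand).
Egr2, upstream start: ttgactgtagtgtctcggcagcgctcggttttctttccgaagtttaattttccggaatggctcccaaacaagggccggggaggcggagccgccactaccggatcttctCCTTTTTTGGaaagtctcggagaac
Egr2, downstream start: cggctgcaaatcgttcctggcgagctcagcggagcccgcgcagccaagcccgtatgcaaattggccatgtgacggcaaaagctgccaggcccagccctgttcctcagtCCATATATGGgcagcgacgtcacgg
Zfp36: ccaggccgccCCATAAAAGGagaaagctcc
Dusp5: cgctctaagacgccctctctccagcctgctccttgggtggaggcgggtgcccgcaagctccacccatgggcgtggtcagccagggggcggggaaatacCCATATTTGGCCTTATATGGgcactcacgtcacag
Srf: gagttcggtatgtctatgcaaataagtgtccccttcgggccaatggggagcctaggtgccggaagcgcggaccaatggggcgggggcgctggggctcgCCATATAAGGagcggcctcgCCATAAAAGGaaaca
Dusp1: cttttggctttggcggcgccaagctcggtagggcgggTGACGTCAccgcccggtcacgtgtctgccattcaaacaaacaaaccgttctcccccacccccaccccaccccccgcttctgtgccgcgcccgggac
Btg2: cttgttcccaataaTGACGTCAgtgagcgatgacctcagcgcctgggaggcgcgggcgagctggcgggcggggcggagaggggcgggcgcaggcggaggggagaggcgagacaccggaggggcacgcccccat

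The CArG boxes thus occurred both in genes that varied (Egr2 and Zfp36) and in genes that did not pass the test (Dusp5 and Srf), and the boxes of Dusp5 lie end to end. Among the 10 genes with a window that passed, the EGR motif GCGNGGGCG was present in Fosb, Zfp36, Btg2 and Klf2. It was also present in 10 of the 25 others and in 6.27% of all genes. The NF-kB site was present in Fos, Fosb and Ier3, in 4 of the 25 others and in 5.14% of all genes, and the AP-1 motif TGANTCA in 0 of the 10, in 2 of the 25 and in 8.97% of all genes. A match describes the letters of these windows and not a bound site.

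The EGR genes encode zinc finger transcription factors, of which Egr1 is among the fastest genes induced in most cell types. Egr1 stood at 234.7, 39.9, 71.35 and 44.2 CPM in replicates 1, 2, 3 and 4. It was highest in replicate 1, next in replicate 3, and close to the same level in the other pair, a 5.88-fold span with the largest SD of the 42 tested genes (1.17 on the log2 scale; edgeR adjusted p = 2.4e-81). Egr2, which also directs myelination and macrophage genes, was at 20.4, 5.12, 6.83 and 4.50 CPM in replicates 1 to 4. Replicate 1 again stood apart from the other libraries, with a 4.53-fold span (edgeR adjusted p = 8.9e-12). The ratio of Egr1 to Egr2 in CPM stayed between 7.78 and 11.5, a narrower range than that of either gene. Without replicate 1, the edgeR adjusted p was 2.1e-05 for Egr1 and 1 for Egr2, and under the 8 other alternatives it was at most 8.3e-40 and 6.1e-08. Egr3, a related factor of lymphocytes and muscle spindles, was at 4.36, 3.03, 3.65 and 3.27 CPM, with counts of 71 to 116. It ranked the libraries as Egr1 did, over a 1.44-fold span that did not pass (edgeR adjusted p = 1). Egr4 had 0 counts. The summed EGR level was 201.1 TPM in replicate 1 and 37.4, 64.3 and 40.1 TPM in the others, and Egr1 made up 80.2% to 88.2% of it.

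The FOS proteins pair with JUN proteins to form the AP-1 transcription factor. Across replicates 1 to 4, Fos reached 130.0, 53.7, 84.55 and 43.3 CPM. Replicate 1 was highest and replicate 4 lowest over a 3.0-fold span (edgeR adjusted p = 2.1e-22). Its coefficient of variation beyond counting noise was 49.9%, where genes of its abundance had 7.5%. Fosb, which differs from Fos in forming longer-lived protein variants, was at 7.51, 2.69, 3.44 and 1.51 CPM, on 43 to 200 counts. Its exact Poisson intervals at 95%, which cover counting error only, were 6.51 to 8.63 CPM in replicate 1 and 1.09 to 2.03 CPM in replicate 4. The order of libraries was that of Fos, over a 4.97-fold span (edgeR adjusted p = 0.0021). The Fosb result needed both ends of that order, with an edgeR adjusted p of 0.75 without replicate 1 and 0.17 without replicate 4, and at most 0.0076 under the 7 other alternatives. Fosl2, which encodes a FOS-related protein without strong activation domains, was at 43.3, 42.1, 43.0 and 43.0 CPM. It was nearly the same in every library, with an SD of 0.02 on the log2 scale, and 0.683% of tested genes of all abundances had a smaller one. Fosl1 was close to the floor, as given above. Fos thus supplied 90.7% of the summed FOS family TPM in replicate 1 and 82.5%, 87.8% and 79.7% in replicates 2, 3 and 4.

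The JUN family was more abundant, and its genes spanned smaller ranges. Jun, the main AP-1 partner of Fos, was at 429.2, 289.8, 340.8 and 290.1 CPM in replicates 1 to 4. Junb, often an antagonist of Jun, was at 405.9, 294.9, 334.7 and 275.1 CPM. Both were highest in replicate 1 and next in replicate 3, each over a 1.48-fold span (edgeR adjusted p = 0.003 for Jun and 0.014 for Junb). Both calls were lost under more than 1 alternative. The edgeR adjusted p without replicate 1 was 0.8 for Jun and 0.74 for Junb, with a common dispersion it was 0.21 and 0.33, and Junb had 0.24 without replicate 4. Under the remaining alternatives it was at most 0.044 for Jun and 0.042 for Junb. Jund, the constitutive member of the family, was at 188.9, 169.2, 160.8 and 165.5 CPM, a 1.17-fold span (edgeR adjusted p = 1). Other annotated exons on the opposite strand cover 52.6% of the exon bases of Jund, 7.28% of Jun and 7.52% of Junb, and since the strand setting of the counting is not given, some reads of these neighbours may not have been told apart. Atf3, a stress-induced factor that pairs with JUN proteins, was at 81.2, 80.3, 83.6 and 77.5 CPM. Its SD was 0.05 on the log2 scale, and 8.87% of tested genes of all abundances had a smaller one. It did not pass (edgeR adjusted p = 1).

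The NR4A genes encode orphan nuclear receptors and had low counts. Nr4a1, a fast target of calcium and cAMP signals, was at 2.37, 1.02, 0.934 and 1.12 CPM, from 63, 24, 22 and 32 counts. The Poisson interval of replicate 1 was 1.82 to 3.03 CPM and that of replicate 2 was 0.657 to 1.52 CPM. Replicate 1 lay above the others, a 2.53-fold span that did not pass the test (edgeR adjusted p = 0.86). With a common dispersion it passed (edgeR adjusted p = 0.03), and under the 8 other alternatives the value was 0.83 to 1. Nr4a2 was at 1.09, 0.470, 0.679 and 0.738 CPM on 11 to 29 counts, also with replicate 1 highest (edgeR adjusted p = 1). Nr4a3 was at 3.87, 3.67, 4.67 and 4.25 CPM and was highest in replicate 3 (edgeR adjusted p = 1).

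The IER genes encode small proteins of early growth responses, and they split evenly. Ier2, a nuclear protein gene of a single exon, was at 130.8, 49.9, 72.0 and 50.7 CPM in replicates 1 to 4. It ranked the libraries as Egr1 did, over a 2.62-fold span (edgeR adjusted p = 7.4e-20, and 0.046 without replicate 1). Ier3, which encodes a survival factor also induced by NF-kB, was at 20.9, 8.92, 11.1 and 9.97 CPM. Replicate 1 alone stood apart, a 2.34-fold span (edgeR adjusted p = 0.0016, but 1 without replicate 1 and at most 0.024 under the 8 other alternatives). Ier5, a cofactor of heat shock factor, was at 364.9, 297.2, 322.0 and 306.4 CPM. It ranked the libraries in the order of Ier2 but over a 1.23-fold span (edgeR adjusted p = 1). Its relative Ier5l was at 6.95, 8.67, 9.21 and 6.32 CPM, with replicate 3 highest and replicate 4 lowest (edgeR adjusted p = 1).

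**Figure D3:**
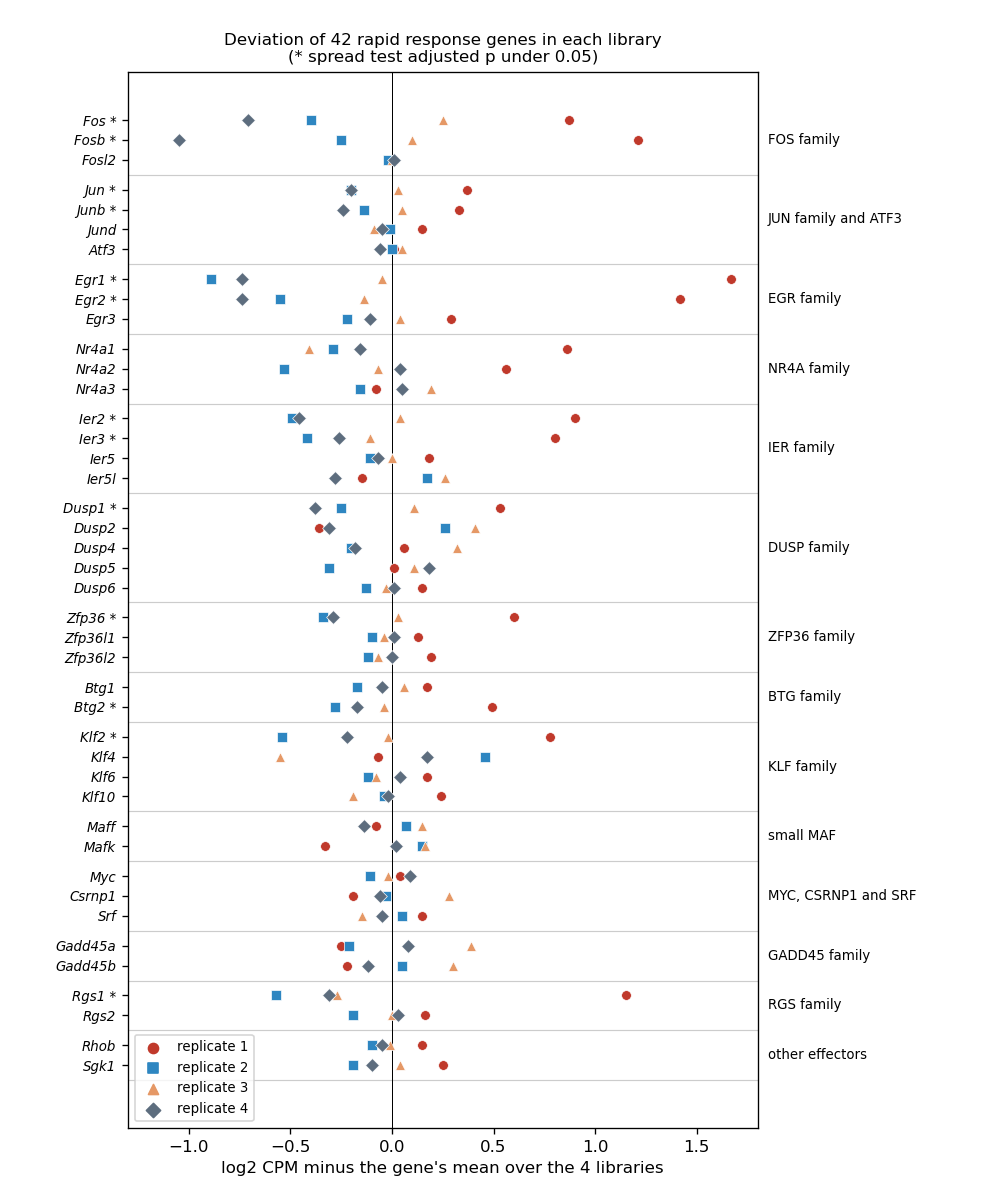
Difference of log2 CPM from the gene's mean over the 4 libraries (horizontal axis, 0 is the mean) for the 42 rapid response genes tested, grouped by subfamily from top to bottom, with 1 symbol per library and an asterisk for genes past the spread test. Replicate 1 lies furthest to the right for all 13 marked genes, up to 1.67 for Egr1. It lies furthest to the left for Dusp2 (-0.36), Mafk (-0.33), Gadd45a (-0.25), Gadd45b (-0.22) and Csrnp1 (-0.19).

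The DUSP genes encode phosphatases that switch off the mitogen-activated kinases, and 1 of the 5 passed. Dusp1, a nuclear phosphatase that acts mainly on p38 and JNK, was at 54.8, 31.8, 40.9 and 29.1 CPM in replicates 1 to 4. It was highest in replicate 1 and lowest in replicate 4, as Fos was, over a 1.88-fold span (edgeR adjusted p = 0.00034, 0.41 without replicate 1 and at most 0.04 under the 8 other alternatives). Dusp6, the cytoplasmic phosphatase of ERK, was the most abundant and supplied 88.5% to 92.1% of the summed DUSP level in TPM. It was at 474.3, 390.1, 419.8 and 431.1 CPM, a 1.22-fold span (edgeR adjusted p = 1). The nuclear phosphatase genes Dusp2, Dusp4 and Dusp5 averaged 0.869, 5.95 and 1.62 CPM. Of these, Dusp2 and Dusp4 were highest in replicate 3 and Dusp5 in replicate 4, each with an edgeR adjusted p of 1. Dusp2 rested on 17 to 27 counts per library and Dusp5 on 30 to 52.

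Proteins of the ZFP36 family bind AU-rich elements and hasten the decay of early transcripts, including that of Zfp36 itself. Zfp36, which encodes tristetraprolin, was at 404.5, 209.6, 271.4 and 218.0 CPM in replicates 1 to 4. Replicate 1 was highest and replicate 3 next over a 1.93-fold span (edgeR adjusted p = 1.3e-11, 0.19 without replicate 1 and at most 0.00081 under the 8 other alternatives). Zfp36l2, the most abundant of the family, was at 817.0, 658.7, 684.5 and 720.1 CPM. It was also highest in replicate 1, over a 1.24-fold span that did not pass (edgeR adjusted p = 0.89). Zfp36l1 was at 247.0, 210.5, 220.6 and 227.8 CPM (edgeR adjusted p = 1), with exons of another gene on the opposite strand over 55.9% of its exon bases. The BTG genes encode antiproliferative proteins that recruit the deadenylase complex to mRNA. Btg2, a target of p53 and of growth factors, was at 151.9, 88.85, 105.0 and 95.7 CPM. Replicate 1 stood apart, a 1.71-fold span (edgeR adjusted p = 0.00011, 1 without replicate 1 and at most 0.029 under the 8 other alternatives). Btg1 was at 127.5, 100.4, 117.9 and 109.2 CPM in the same order of libraries, but did not pass (edgeR adjusted p = 1).

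The KLF genes encode zinc finger factors of quiescence and inflammation. Klf2, which restrains inflammatory genes in myeloid and endothelial cells, was at 29.2, 11.7, 16.8 and 14.6 CPM in replicates 1 to 4. It was highest in replicate 1 and next in replicate 3 over a 2.5-fold span (edgeR adjusted p = 4.7e-05, 0.89 without replicate 1 and at most 0.0089 under the 8 other alternatives). Klf6, a factor of wound responses and the most abundant of the family, was at 279.1, 229.3, 234.7 and 255.6 CPM (edgeR adjusted p = 1). Klf10, induced by TGF-beta, was at 21.9, 18.1, 16.3 and 18.3 CPM and was highest in replicate 1 by a 1.35-fold span that did not pass (edgeR adjusted p = 1). Klf4, a factor of monocyte differentiation, was the only gene of the 42 highest in replicate 2, at 3.23, 4.70, 2.29 and 3.83 CPM on 54 to 110 counts (edgeR adjusted p = 1). Its order of libraries was thus unlike that of Klf2.

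The RGS proteins shorten signals of G protein-coupled receptors. Rgs1, a regulator of chemokine receptors, was at 82.3, 24.85, 30.7 and 29.7 CPM in replicates 1 to 4. Replicate 1 stood alone and the other libraries were close to each other, over a 3.31-fold span (edgeR adjusted p = 1.6e-24). Without replicate 1 that p was 1, and under the 8 other alternatives it was at most 1.5e-15. Fos and Egr1 still passed among replicates 2, 3 and 4, and whether they differ from Rgs1 in this was not tested. Rgs2, which acts on receptors coupled to Gq, was at 317.4, 248.2, 284.1 and 290.3 CPM, a 1.28-fold span (edgeR adjusted p = 0.82). Rhob was at 669.3, 562.5, 596.5 and 581.9 CPM, and the kinase gene Sgk1, known for induction by glucocorticoids and serum, was at 269.9, 198.1, 232.1 and 211.4 CPM. Both were highest in replicate 1 and next in replicate 3 without passing (edgeR adjusted p = 1 for Rhob and 0.23 for Sgk1, whose unadjusted p was 0.006).

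A further set of genes did not pass, and some of them leaned the other way. Myc, a growth regulator, was at 16.2, 14.6, 15.6 and 16.7 CPM. Srf, the gene of the factor that binds CArG boxes, was at 56.2, 52.1, 45.5 and 48.7 CPM. Csrnp1, a nuclear protein gene induced by axin, was at 14.6, 16.2, 20.1 and 16.0 CPM. Their SDs were 0.09 for Myc, 0.13 for Srf and 0.2 for Csrnp1 on the log2 scale, and each had an edgeR adjusted p of 1. Srf was highest in replicate 1 and lowest in replicate 3, and Csrnp1 the reverse. The small MAF genes encode partners of NRF2 and BACH proteins. Mafk was at 33.65, 47.05, 47.4 and 43.2 CPM, and replicate 1 was its lowest library (edgeR unadjusted p = 0.023, adjusted p = 0.51). Maff was at 7.40, 8.24, 8.70 and 7.13 CPM (edgeR adjusted p = 1). The GADD45 genes encode stress proteins of growth arrest and DNA repair. Gadd45a was at 5.78, 5.94, 9.04 and 7.27 CPM and Gadd45b at 4.845, 5.85, 6.96 and 5.20 CPM, both lowest in replicate 1 and highest in replicate 3 (edgeR adjusted p = 1 for each). In all, 5 of the 42 tested genes were lowest in replicate 1, Dusp2, Mafk, Csrnp1, Gadd45a and Gadd45b, and none of them passed. The share of all tested genes lowest there was 30.7%.

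Set side by side, the subfamilies differed in how far they lay above their mean in replicate 1. The median deviation there was 1.42 for the EGR family, 0.87 for the FOS family, 0.66 for the RGS family, 0.56 for the NR4A family and 0.49 for the IER family, on the log2 scale. It was 0.33 for the BTG family, 0.24 for the JUN family with Atf3, 0.2 for the KLF family, 0.19 for the ZFP36 family and 0.06 for the DUSP family. The small MAF and GADD45 families lay below their mean, at -0.21 and -0.24. These are medians of 2 to 5 genes and carry no test. In the NR4A family 0 of 3 genes passed, its median is that of Nr4a2, and Nr4a3 was at -0.08 in replicate 1. The RGS median lies between Rgs1 (1.15) and Rgs2 (0.16). The median of all tested genes was 0 in replicate 1. With Fosl1 included, which the abundance filter removes, the FOS median was 0.44.

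In the FOS, JUN, EGR, IER, DUSP, ZFP36, BTG, KLF and RGS families some genes passed and a relative did not. The ratio of Egr1 to Egr3 in CPM was 53.9 in replicate 1 and 13.2, 19.5 and 13.5 in replicates 2, 3 and 4. Fos to Fosl2 was 3.01, 1.27, 1.97 and 1.01, and Rgs1 to Rgs2 was 0.259, 0.1, 0.108 and 0.102. Ier2 to Ier5, Klf2 to Klf6, Dusp1 to Dusp6 and Zfp36 to Zfp36l2 were likewise highest in replicate 1, with spans of 2.17-, 2.06-, 1.71- and 1.64-fold. Btg2 to Btg1 and Jun to Jund were also highest there, with smaller spans of 1.36- and 1.33-fold. By contrast, the ratio of Zfp36l1 to Zfp36l2, neither of which passed, was 0.302, 0.32, 0.322 and 0.316. Klf4 and Klf6 did not pass either, but their ratio was 0.0116, 0.0205, 0.00976 and 0.015. That was a 2.1-fold span with replicate 2 highest, and Klf4 had 54 to 110 counts. A ratio within a library does not depend on how the libraries were scaled. Most of these pairs were formed from a gene that passed and a gene that did not, so the ratios describe the genes and the difference between relatives was not tested.

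**Figure D4:**
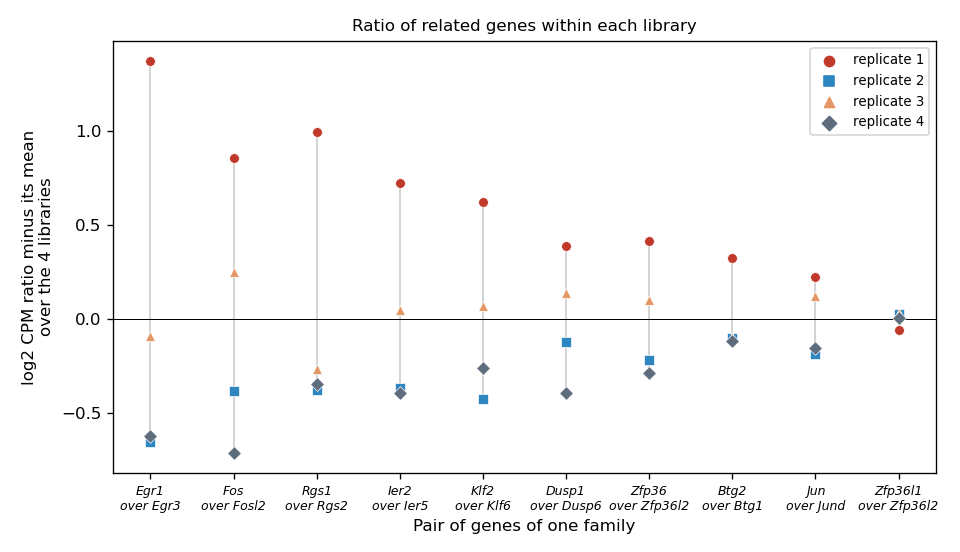
Ratio of 10 pairs of related genes within each library, as log2 of the CPM ratio minus its mean over the 4 libraries (vertical axis), with 1 symbol per library. In the first 9 pairs, whose first gene passed the spread test and whose second did not, replicate 1 is on top. In the last pair, Zfp36l1 over Zfp36l2, the symbols nearly coincide. Klf4 over Klf6, also a pair in which neither gene passed, is not drawn and had a 2.1-fold span.

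Features of the gene models, which were not used to choose the genes, were counted next. In GENCODE M21 the median gene span was 3951 bases for the 13 genes past the spread test, 5804 for the 29 others tested and 23683 for all tested genes with a model. The transcript with the most exons had 2 exons or fewer in 6 of the 13 (46.2%), in 6 of the 29 (20.7%) and in 8.25% of all. The heptamer UAUUUAU, the core of the AU-rich element, occurred at least once in the 3′ untranslated region of 9 of the 13 genes (69.2%), of 16 of the 29 others (55.2%) and of 27.9% of 11742 tested genes. Pooled over the sequence, that was 1.07, 0.539 and 0.288 per kilobase. Ier3 had 4 copies, Dusp1 and Zfp36 had 3 each and Fos had 2. Egr1, Egr2, Ier2 and Junb, which passed, had 0 copies, and Fosl2, Zfp36l1 and Zfp36l2, which did not pass, had 3 each. The shorter AUUUA occurred 2 times in Egr1, 3 in Egr2, 2 in Junb and 0 in Ier2. In Fosl2, Zfp36l1 and Zfp36l2 it occurred 8, 9 and 5 times. These shares describe the lists and carry no test.

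Genes upstream of the rapid response were not shown to vary. Of all tested genes 1.11% passed, so 0 in lists as short as those below is near that share. None of 20 kinases and small GTPases of the ERK, p38 and JNK cascades passed the edgeR test. At an unadjusted p under 0.05 there were 2, beside 6.79% of all genes. With a common dispersion or with DESeq2's dispersion trend 0 passed. The most abundant were the kinase genes Rps6ka1, at 689.7, 663.0, 640.9 and 638.0 CPM, and Mapkapk2, at 398.0, 401.7, 375.4 and 358.0 CPM. Of 14 SRF cofactors, CREB family members and MEF2 factors, 0 passed (0 at an unadjusted p under 0.05 and 0 with either other dispersion). Here Mef2a was at 438.6, 388.2, 350.2 and 398.7 CPM, and Mef2c at 306.2, 287.7, 262.5 and 301.7 CPM. A second list of 35 rapid response genes outside the 45 had 34 genes tested, and 0 passed. Of these, 7 had an unadjusted p under 0.05 (6.79% of all genes), and 17 were highest in replicate 1 (29.7% of all genes). With DESeq2's trend 0 passed, and with a common dispersion 3 passed (Ptgs2, Hes1 and Id3), beside 4.13% of all genes. Its most abundant members, the survival gene Mcl1 (417.8 to 442.6 CPM) and the SMAD corepressor gene Skil (189.1 to 229.6 CPM), varied little.

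Of 23 tested NF-kB targets and rapid cytokines, 4 passed, or 17.4% beside the 1.11% of all genes, and these 4 were highest in replicate 1 and lowest in replicate 2. In the same order of replicates the cytokine gene Tnf had 154.2, 53.6, 82.1 and 69.8 CPM (edgeR adjusted p = 1e-20). The monocyte chemokine gene Ccl2 was at 54.3, 10.25, 20.2 and 15.6 CPM (edgeR adjusted p = 1.6e-28), and the related Ccl7 at 6.685, 0.726, 1.655 and 1.615 CPM (edgeR adjusted p = 4.7e-06). Ccl3 was at 94.5, 38.4, 54.3 and 42.6 CPM (edgeR adjusted p = 1.6e-13), and as a close copy of other chemokine genes its counts are uncertain to the extent that reads are shared. The profile of Tnf, Ccl2 and Ccl3 over the libraries resembled that of Egr1, with replicate 1 on top, and all but Tnf and Ccl2 lost the call without replicate 1. Il6 had 0 counts. Among 12 heat shock genes, which respond to protein damage, Hsp90aa1 passed, or 8.33% beside 1.11% of all genes. Hsp90aa1 was at 175.6, 135.7, 108.7 and 160.9 CPM (edgeR adjusted p = 0.0019, and 0 heat shock genes with a common dispersion). It was highest in replicate 1 and lowest in replicate 3, as were 25.1% of all genes lowest there. The 13 rapid response genes past the test were all next highest in replicate 3, so 0 of them were lowest there. Of 13 SRF targets of the cytoskeleton, the smooth muscle actin gene Acta2 passed, or 7.69% beside 1.11% of all genes. Acta2 was at 43.4, 57.2, 72.5 and 45.7 CPM (edgeR adjusted p = 0.0041), and it was lowest in replicate 1.

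Markers of other cells were read beside these results. In bulk RNA, fewer cells of a type and less RNA per cell cannot be told apart. Of 13 tested astrocyte markers, 11 were lowest in replicate 1, as were 30.7% of all genes, and the summed level of all 14 was 339.4 CPM there and 521.1, 550.8 and 451.2 CPM in replicates 2, 3 and 4. The filament gene Gfap was at 40.4, 77.4, 75.7 and 56.9 CPM (edgeR adjusted p = 9.9e-06), and Clu and Slc1a3 passed too, so that 3 of 13 passed, against 1.11% of all genes. With a common dispersion Gfap and Gja1 passed and Clu and Slc1a3 did not, and without replicate 1, 0 astrocyte markers passed. The library with the least astrocyte RNA was thus the one with the most of the 13 rapid response genes. The reverse order did not hold throughout, as replicate 3 had the highest summed astrocyte level (550.8 CPM) and was next highest for all 13. Any link was not tested. Of 13 microglial markers tested, 2 passed, or 15.4% beside 1.11% of all genes, and 0 with a common dispersion (4.13% of all genes). These were the purinergic receptor gene P2ry12 (239.2, 185.2, 161.2 and 248.7 CPM) and Sparc (190.4, 288.1, 317.7 and 251.1 CPM). They differed in order, as P2ry12 was lowest in replicate 3 and Sparc was highest there. Sparc was lowest in replicate 1, as was the astrocyte marker Clu (154.2, 233.7, 258.3 and 206.9 CPM). Of 7 mural cell and fibroblast markers tested Acta2 passed, or 14.3% beside 1.11% of all genes. At an unadjusted p under 0.05 there were 5 (6.79% of all genes). With a common dispersion 4 passed (Acta2, Col1a1, Col1a2 and Dcn), and without replicate 1, 2 passed (Acta2 and Col1a1). The median deviation of this list over replicates 1 to 4 was 0.35, 0.12, -0.38 and -0.15 on the log2 scale, while Acta2 itself was lowest in replicate 1 and highest in replicate 3. The summed level of the 10 listed was 83.86, 102.2, 109.3 and 80.63 CPM, so the sum was not high in replicate 1 as the median was. Of the 7 tested, 1 was highest and 3 were lowest in replicate 1. In the oligodendrocyte list 0 of 6 tested markers passed, with Mbp at 103.2 to 114.8 CPM, Cnp at 103.3 to 111.4 CPM and Mog at 0. In the endothelial list 0 of 4 passed, with Flt1 at 68.9 to 77.1 CPM, Kdr at 11.9 to 21.7 CPM and Tek and Esam at 0. In the neuronal list 0 of 2 passed, with Map2 at 9.65 to 13.9 CPM, Stmn2 at 1.73 to 3.95 CPM and Snap25 at 0. For lists this short, 0 is near the 1.11% of all genes that passed. Like the astrocyte list (-0.44), these 3 lists lay below their mean in replicate 1. Their median deviations there were -0.14, -0.24 and -0.38 on the log2 scale, while that of the microglial list was 0.08. At an unadjusted p under 0.05 (6.79% of all genes) these 3 lists had 1, 2 and 0 genes. With DESeq2's trend they had 0 each, and with a common dispersion (4.13% of all genes) 1 each (Mag, Vwf and Stmn2). Of 10 monocyte and neutrophil markers 6 had 0 counts in every library, among them Ly6c2, Ly6g and Mpo. The 2 tested were Csf3r, at 70.4 to 78.35 CPM, and Ccr2, at 1.51 to 2.52 CPM, and 0 passed in edgeR at an adjusted or unadjusted p under 0.05, with a common dispersion or with DESeq2's trend. Here too 0 is near the 1.11% of all genes.

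**Figure D5:**
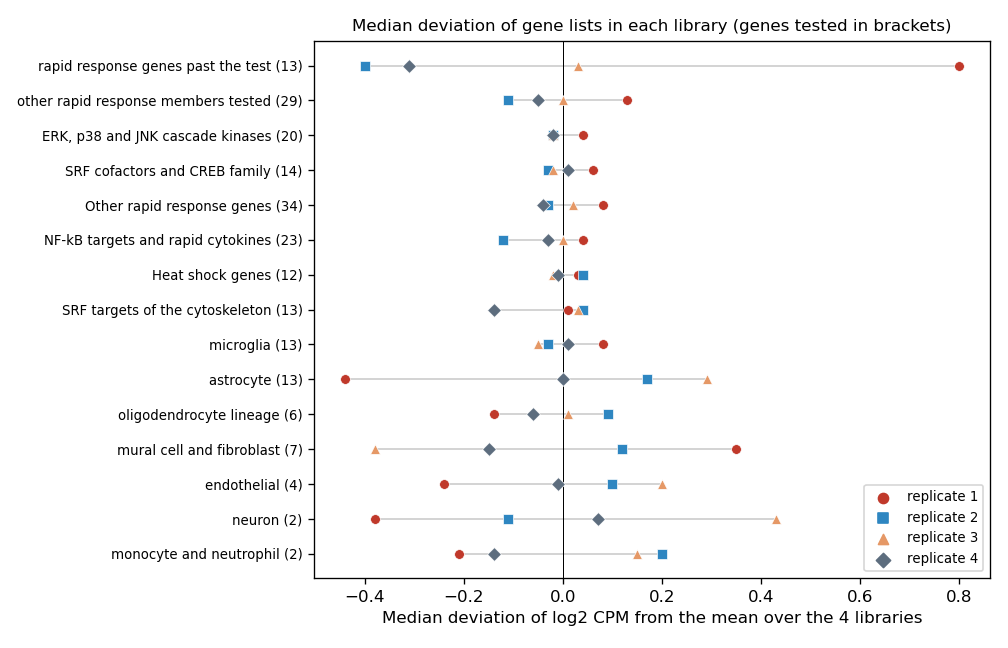
Median over each gene list of the difference of log2 CPM from the gene's mean over the 4 libraries (horizontal axis, 0 is the mean), with 1 symbol per library and the number of genes tested in brackets. The 13 rapid response genes past the test were chosen by their spread, so their row (0.8 in replicate 1) is a description. The astrocyte row lies on the other side of 0 in the same library (-0.44). So do the neuronal (-0.38), endothelial (-0.24), monocyte and neutrophil (-0.21) and oligodendrocyte (-0.14) rows. Of the other cell type rows, the mural cell and fibroblast row (0.35) and the microglial row (0.08) lie above 0 there. The summed mural cell and fibroblast level was nonetheless lower in replicate 1 (83.86 CPM) than in replicates 2 (102.2) and 3 (109.3).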

How the data were processed

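For each library the authors deposited a table of raw counts by gene symbol. Its 5 summary lines, 11.8% ± 0.161 of the reads (SD, n = 4), did not enter library sizes or the test. Columns of no sample numbered 0. STAR 2.7.10a, SAMtools 1.16.1, HTSeq 0.11.2 and mm39 (GRCm39) are named, per the submitters' processing notes. The strand setting is not given in the sources used here. From the deposited counts, edgeR 4.0.16 (R 4.3.3) fitted 1 mean per gene with TMM scaling, filterByExpr and the trended dispersion. Each deviance was compared with a chi-square distribution of 3 degrees of freedom, with Benjamini-Hochberg adjustment over 12879 genes and a threshold of 0.05. Log2 CPM used a prior count of 2. The script was tested on simulated data. Every pair of libraries differed beyond counting noise (chi-square of the counts over degrees of freedom, 5.57 to 15.0), so each was counted once.

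TPM used merged exon lengths of GENCODE M21 on GRCm38, matched by symbol for 89.1% of listed symbols, 97.1% of tested genes, 98.8% of counts and all 45 members. GRCm38 is another build than the authors', so no coordinates are given for counts. Promoters are RefSeq's, on GRCm38.p6. For the 3′ untranslated region, the coding transcript with the longest coding sequence was used.

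The members and the 13 other lists (194 genes) were chosen with earlier results of these data known. The genes named are all members and, of each list, those past the test (at most 4, by SD) or otherwise the 2 highest; Ptgs2, Hes1, Id3, Mag, Vwf, Gja1, Col1a1, Col1a2, Dcn and genes at 0 were named after their values were seen. Alternatives were DESeq2 1.42.0 size factors or dispersion trend, scaling to the total, no filter, a common dispersion and each library left out.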

Additional observations from a re-analysis of the deposited data

How the results depend on the processing

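All 13 rapid response genes passed the spread test with DESeq2 size factors, with scaling to the total gene count, with no filter on low counts, with DESeq2's dispersion trend, and without replicate 2 or 3. With a common dispersion 12 passed, as Jun and Junb were lost and Nr4a1 was gained, and all genes past the test numbered 532, 81 of them among the 143. Leaving out 1 library at a time gave 3 to 13 rapid response genes and 47 to 118 of all genes. The lowest counts were those without replicate 1, and without replicate 4 the count was 11, with Fosb and Junb lost. The number of rapid response genes highest in replicate 1 was 28 to 31 wherever that library was kept. The number highest in replicate 2 was 3 with no filter on low counts, against 1, since Fosl1 and Arc were then included. With 1 library left out, 2 to 8 genes were highest in replicate 2, 10 to 28 in replicate 3 and 3 to 11 in replicate 4, as fewer libraries remained to be highest. The subfamily medians in replicate 1 were recomputed under the other scalings, with no filter and without replicate 2, 3 or 4. They kept their sign there, except that of the DUSP family, which was -0.01 without replicate 2 and 0.04 to 0.14 otherwise. The NR4A genes, Dusp2, Dusp5 and Arc had low counts and so wide counting intervals. No paired analysis was possible because the labels give 1 group, so no groups share replicate numbers.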
